A study of Homo sapiens with 9 samples.

Results

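The genes described here encode 10 proteins that build the U2 small nuclear ribonucleoprotein (snRNP) or recognise the branch point and the 3′ splice site: SF3B1, SF3B2, SF3B3, SF3A1, SF3A3, U2AF1, U2AF2, SF1, PUF60 and SUGP1. They were chosen by name, and the question was where the SF3B1 protein contacts the RNAs of its own complex and of its partners. A site belonged to a gene when its centre lay inside the RefSeq span of that gene on GRCh38 and on the strand of the gene. The genes held 280 of the 96852 sites of the list, or 0.289%, and 9 of the 10 genes had a site.

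The sites came from iCLIP in K562. This established line is described by the labels as lymphoid, although it is widely known as a chronic myeloid leukaemia line. In iCLIP, ultraviolet light (254 nm, 400 mJ per cm2) bonds a protein to the RNA it touches, an antibody pulls the protein down, and sequencing of the attached RNA marks the bonded nucleotides. The labels attach the list to 3 samples of a K562 line from Horizon Discovery with the genotype SF3B1 wt/wt, precipitated with an antibody against SF3B1. The 2 samples of an SF3B1 K700E/wt line from the same supplier were not analysed here. Nor were the 4 samples of SF3B1 wt/wt cells from another supplier, precipitated for U2AF2. All lines received the same ultraviolet treatment. The track line of the list speaks of sites reproduced by all replicates of either condition, so single sites are not assigned to a genotype below.

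The list gives positions of 5 nt sites, with no read number and no value per sample. The depth is therefore unknown, there is no spread between samples, and no difference below has a replicate test. Intervals cover counting error only. They treat the counts within a gene as independent, so they may be too narrow where sites crowd together. Nor was the abundance of any RNA measured, so more contacts per RNA molecule and more RNA molecules cannot be told apart.

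Before an intron is removed, SF1 binds the branch point, U2AF2 binds the pyrimidine tract downstream of it, and U2AF1 contacts the AG at the intron end. The U2 snRNP then replaces SF1. Its SF3a and SF3b complexes hold the branch-point helix, with SF3B1 clamped around it. PUF60 is a U2AF2-related protein that binds pyrimidine tracts, and SUGP1 is a G-patch protein that binds SF3B1 and whose loss from the spliceosome is a known consequence of SF3B1 hotspot mutations.

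Among the 10 genes, U2AF1 was the one without a site, and it has an annotated copy on the same chromosome. U2AF1 spans chr21:43092956-43107578 and the copy, LOC102724594 (also called U2AF1L5), spans chr21:6484623-6499248. Their spans are 14623 and 14626 nt long. RefSeq (GRCh38.p14) gives 300 bases around a start of each gene, 250 before it and 50 after it. These differ at 1 base, A262C, where positions count from 1 at the 5′ end of the window, U2AF1 is read first and the copy second. The 250 bases before the start are identical. The 242 of them outside the annotated span of U2AF1 lie on the minus strand of chr21:43107579-43107820. The same letters stand at chr21:6499257-6499498 for the copy. Being outside the span, these 242 bases do not bear on the count of sites within it. Beyond the 300 bases the genes were not compared, so the likeness of the rest of their spans was not tested.
U2AF1 and LOC102724594, upstream of the start: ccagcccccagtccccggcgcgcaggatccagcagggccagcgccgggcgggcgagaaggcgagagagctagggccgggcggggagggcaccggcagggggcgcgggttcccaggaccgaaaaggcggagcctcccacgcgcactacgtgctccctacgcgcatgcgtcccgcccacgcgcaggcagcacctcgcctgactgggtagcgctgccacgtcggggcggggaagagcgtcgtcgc

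The 5 kb flanks of U2AF1 held 0 sites, as did those of SF3B1, SF3A3 and SF1, while those of SF3B3 and PUF60 held 2 each. Within its span, U2AF1 had 0 sites on either strand. A count of 0 in the whole list allows a share of up to 0.0031% of the sites. The copy had 1 site, at chr21:6487071-6487075, 12.2 kb from the start of its span. How reads with several matches were treated is not given in the sources used here, and its part in the count of 0 was not tested. U2AF1 is therefore uncertain, and the values below are carried by the other 9 genes.

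A site was present in 9 of 10 genes, against 38.0% of 20050 protein-coding genes and 44.9% of the 8965 such genes that are 10 to 60 kb long. At least 5 sites were also present in 9 of the 10 genes, against 23.1% of the 20050 protein-coding genes. The median over the 10 genes was 19 sites, against 7 over the 7609 genes with a site. Relative to length, 5 of the 10 genes reached 1 site per kb, a density shared by 12.0% of the genes with a site. Expression was not measured, and the background holds all annotated protein-coding genes, so the difference from it was not tested. No site in the 10 genes lay on the opposite strand, and none lay in another protein-coding gene.

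**Figure D1:**
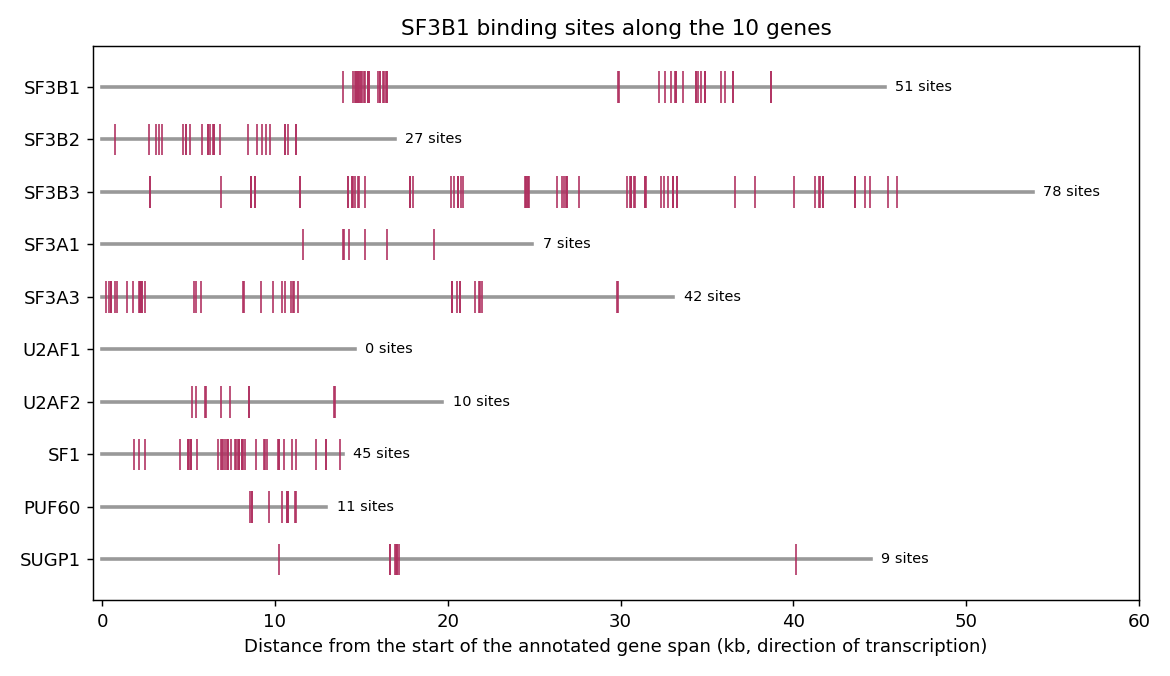
SF3B1 binding sites (vertical ticks) along the annotated span of each of the 10 genes (grey lines); the x axis is the distance from the start of the span in kb, in the direction of transcription. SF3B3 had 78 sites spread over 43.2 kb, the 51 sites of SF3B1 fell on both sides of an empty stretch of 13.4 kb, and U2AF1 had 0.

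The 3 SF3b genes carried 156 of the 280 sites at 1.34 per kb of span. SF3B3, which encodes a large beta-propeller scaffold of SF3b, had the most, 78 sites on the plus strand of chr16:70523816-70577668, or 27.9% of the total. At 1.45 sites per kb it exceeded 92.9% of the genes with a site. Its sites began 2.75 kb from the start of the span and stopped 7.87 kb before its end, covering 80.3% of it with no empty stretch above 4.11 kb. They formed 48 clusters when neighbours at most 60 nt apart were joined, 0.891 clusters per kb (95% exact Poisson interval 0.657 to 1.18). Its largest clusters held 5 sites each, within 38 nt at chr16:70532421-70532458 and within 47 nt at chr16:70554391-70554437. Of the sites in SF3B3, 2 lay inside SNORD111, a small nucleolar RNA gene within its span, and they cannot be assigned to either gene.

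SF3B1, the gene of the precipitated protein itself, had 51 sites on the minus strand of chr2:197389784-197435093. At 1.13 sites per kb it exceeded 89.5% of the genes with a site. The sites were not evenly spread. The first lay at 30.8% and the last at 85.5% of the span, and the longest gap took 29.5% of it. In all genes with at least 5 sites, the medians of these were 24.6%, 91.7% and 20.9%, so empty ends and gaps were common. In SF3B1, no site lay in the first 13.9 kb after the annotated start. The next 2.56 kb held 27 sites, an empty stretch of 13.4 kb followed, and the other 24 sites lay between 29.9 and 38.7 kb from the start. The last 6.59 kb had none.

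Within the first of these blocks, 26 sites lay in 1995 nt, at chr2:197418594-197420588, which is 13.0 sites per kb. They made up 51.0% of the sites in SF3B1. Most stretches of 2 kb in other genes held far fewer. Among 4630 protein-coding genes that had 5 or more sites, the fullest 2 kb held a median of 6 (quartiles 4 and 9). Of these genes, 25 reached 26, SF3B1 included. The 4630 genes held a median of 13 sites in all (quartiles 8 and 23), so most of them could not reach 26. Genes with as many sites as SF3B1 were not compared separately. The 26 sites formed 10 clusters, and their neighbours were 5 to 539 nt apart with a median of 40 nt. In the part of the gene downstream of the gap, the median distance between neighbours was 153 nt. The dense stretch was picked as the 2 kb with the most sites, which by itself favours short distances there. Each part held a cluster of 5 sites, the largest number in SF3B1, within 79 nt at chr2:197419654-197419732 in the dense stretch and within 51 nt at chr2:197400175-197400225 downstream of the gap. SF3B1 had 0.552 clusters per kb (interval 0.357 to 0.814), and this interval overlaps that of SF3B3. Exons and introns were not used here, so neither block is assigned to one.

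SF3B2 encodes the protein that binds SF3B4 within SF3b and contacts pre-mRNA near the branch point. Its span, chr11:66052364-66069308, held 27 sites on the plus strand. That is 1.59 sites per kb, more than in 94.1% of the genes with a site. The first site lay 0.76 kb from the start, at chr11:66053122-66053126, and was 20 nt away from SNORD13F, a small nucleolar RNA gene. The last lay at 11.2 kb, so the final 5.71 kb were empty. Its sites were mostly single. Of its 21 clusters, 16 held 1 site, and the median distance between neighbours was 191.5 nt, against 48.5 nt in SF3B1 and 130 nt in SF3B3.

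The SF3a genes had unlike counts. SF3A3, a zinc finger subunit of SF3a, had 42 sites on the minus strand of chr1:37956975-37990022, at 1.27 per kb. SF3A1, whose protein carries SURP domains and a ubiquitin-like domain that binds U1 snRNA, had 7 sites on the minus strand of chr22:30331988-30356894, at 0.281 per kb. In clusters per kb the values were 0.847 (interval 0.563 to 1.22) and 0.241 (interval 0.0884 to 0.524), so these counting intervals do not overlap. SF3A3 was also the gene with sites closest to its start. Its first site lay 0.25 kb from it, 17 of its sites lay in the first 10% of the span, and its fullest 2 kb, with 15 sites, ran from 0.507 to 2.47 kb. A stretch of 8.92 kb without a site separated 30 sites from the remaining 12. The pseudogenes SF3A3P1 and SF3A3P2 had 0 sites. SF3A1 had 0 sites in its first 11.7 kb, and its 7 sites lay within 7.57 kb.

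U2AF2, the large U2AF subunit, had 10 sites on the plus strand of chr19:55655035-55674716, at 0.508 per kb, which exceeded 74.9% of the genes with a site. They lay between 5.2 and 13.5 kb from the start, in 7 clusters. The last 2 sites stood apart from the others by 4.89 kb and formed a pair with centres 40 nt apart, at chr19:55668451-55668495.

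SF1, the branch-point binding protein that gives way to the U2 snRNP, had the highest density of the 10 genes. It had 45 sites in 13.9 kb on the minus strand of chr11:64764606-64778542, or 3.23 per kb, more than in 98.7% of the genes with a site. It had 2.01 clusters per kb, with an interval of 1.33 to 2.90 that lay above those of 8 of the other genes. That of SF3B2 (1.24, interval 0.767 to 1.89) overlapped it. Sites ran from 1.86 to 13.8 kb from the start, and the last one lay 0.171 kb before the end of the span. The fullest 2 kb, from 6.70 to 8.26 kb, held 20 sites. As many were reached by 86 of the 4630 genes with at least 5 sites. Many of these genes held fewer than 20 sites in all (median 13), so they could not reach that number.

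PUF60, with a span of chr8:143816344-143829315, had 11 sites, all on the minus strand, at 0.848 per kb. All of them lay in 2.63 kb that began 8.59 kb from the start, so the first 66.2% of the span was empty. SUGP1 had 9 sites on the minus strand of chr19:19276033-19320509, the lowest density of the 9 genes at 0.202 per kb and close to the median of 0.199 over all genes with a site. Of these, 7 lay within 541 nt at chr19:19303318-19303858, followed by 23.0 kb without a site, 51.7% of the gene. A single site lay on each side.

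By sites per kb, the order was SF1, SF3B2, SF3B3, SF3A3, SF3B1, PUF60, U2AF2, SF3A1, SUGP1 and U2AF1. Every gene overlapped the next one of this order in its counting interval of clusters per kb, so neighbours in the order are not separated by these data.

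**Figure D2:**
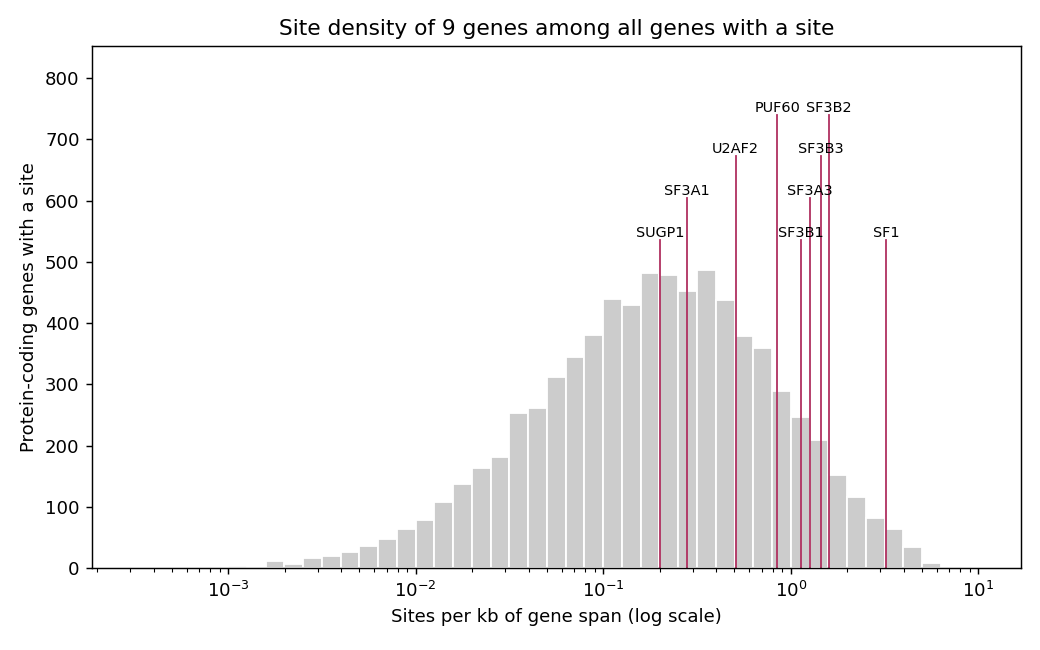
Sites per kb of gene span (log scale) for the 7609 protein-coding genes with a site (grey bars, number of genes), with the 9 genes that had a site as red lines whose height has no meaning. SUGP1 (0.202) lay near the middle of the distribution and SF1 (3.23) near its upper end.

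Few sites of the 10 genes lay near the annotated 3′ ends. The last 10% of the span held 6 sites, 2.14% of 280 (95% Wilson interval 0.986% to 4.60%), against 13.4% of the sites in all genes with at least 5. The second 50% of the span held 46.4% of the sites (interval 40.7% to 52.3%), against 63.6%. SF1 held 3 of the 6 sites in the last 10%, SF3A3 held 2 and SUGP1 1. Of the 9 genes, 6 had no site in the last 10%, which was true of 44.0% of genes with at least 5 sites. The first 10% held 20 sites, or 7.14% (interval 4.67% to 10.8%), against 4.48% of the sites in all genes with at least 5. Of these 20 sites, SF3A3 alone held 17, SF3B3 2 and SF3B2 1. The other 6 genes had none there, and 76.0% of genes with at least 5 sites had none. Neither end held a site in 4 of the 9 genes, as in 32.1% of genes with at least 5 sites. Sites within a gene are not independent, and the difference from other genes was not tested.

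Pairs of sites with centres 25 to 45 nt apart were present in 8 of the 9 genes, and in 87.2% of genes with at least 5 sites. They numbered 65, while 20 pairs had a distance of 46 to 66 nt, a ratio of 3.25, against 3.59 over all protein-coding genes. The nearer span held more pairs in 7 genes, as it did in 78.9% of the genes with at least 5 sites. SF3B1 had 21 pairs against 3, SF3B3 21 against 3, SF3A3 8 against 3, PUF60 4 against 1, SF3B2 2 against 1, and SF3A1 and U2AF2 1 against 0. SF1 departed from this with 7 pairs in each span, and SUGP1 had 0 against 2. In SF3B1, 14 of the 21 near pairs came from the dense 2 kb.

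Joined at 60 nt, the 280 sites made 174 clusters, of which 110 (63.2%, Wilson interval 55.8% to 70.0%) were single sites, and no cluster held more than 5. Among 271 distances between neighbouring centres, 42 (15.5%, interval 11.7% to 20.3%) were 5 to 12 nt. The shares of single sites and of these short distances over all genes are not given here. The clusters with the most sites had different inner layouts. In SF3B3, 1 of the 2 clusters of 5 sites was 1 element with steps of 6 to 10 nt, and the other had 3 elements. The clusters of 5 sites in SF3B1 had 3 elements in the dense stretch and 2 elements, with mean positions 33.3 nt apart, downstream of the gap. SF1 had 2 clusters of 4 sites, 1 with 3 elements in 98 nt (chr11:64770361-64770458) and 1 with 2 elements in 53 nt (chr11:64770614-64770666). In SF3A3 the largest cluster held 4 sites in 3 elements (chr1:37987700-37987768), and in PUF60 it also held 4 in 3 (chr8:143818548-143818602). The 4 sites of SUGP1 at chr19:19303442-19303531 were 4 separate elements. SF3B2 had 3 sites in 2 elements 43.0 nt apart (chr11:66058773-66058824). No cluster of SF3A1 or U2AF2 held more than 2 sites, which were 37 nt apart in SF3A1 and 8, 10 and 40 nt apart in the 3 clusters of U2AF2.

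A stricter view used clusters that split into exactly 2 elements, each of sites at most 12 nt apart, with mean positions 25 to 45 nt apart. This gave 28 paired footprints in 8 genes, with a median distance of 36.5 nt. The limits of 25 and 45 nt bound this median, so it does not show a preferred distance. The same count over all genes is not given here. SF3B3 had 10, SF3B1 6, SF3A3 5, SF3B2 and SF1 2 each, and SF3A1, U2AF2 and PUF60 1 each. Examples are chr22:30342896-30342937 in SF3A1, with sites 37 nt apart, and chr16:70567356-70567399 in SF3B3, with sites 39 nt apart. In the direction of transcription, 31 sites belonged to the upstream and 38 to the downstream elements. At longer distances, 61 pairs were 140 to 180 nt apart and 35 were 60 to 100 nt apart, a ratio of 1.74 against 1.72 over all genes.

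**Figure D3:**
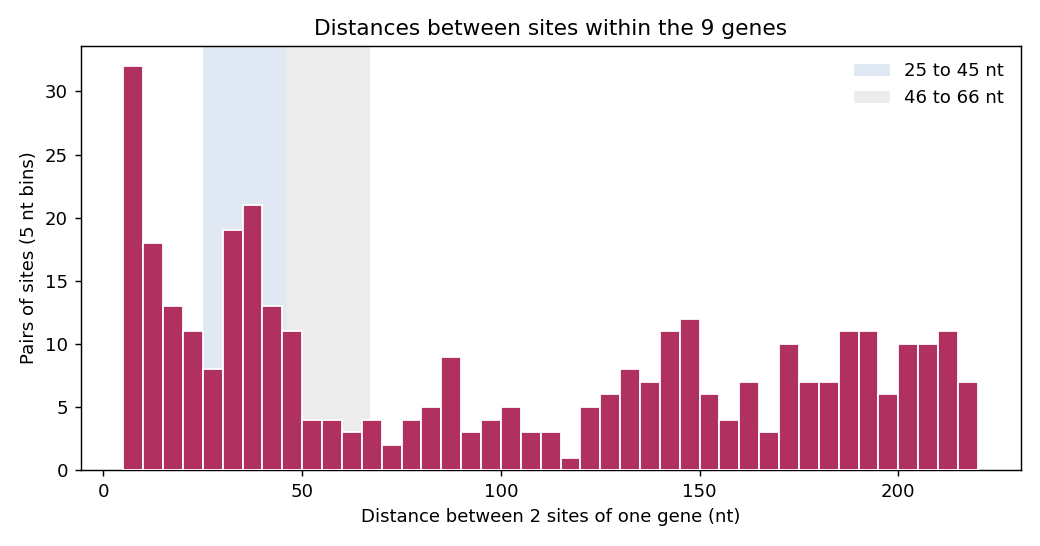
Number of pairs of sites in one gene by the distance between their centres, in bins of 5 nt, summed over the 9 genes with a site; shading marks 25 to 45 nt (blue) and 46 to 66 nt (grey). The tallest bin, from 5 to 9 nt, held 32 pairs. The bins from 30 to 34 and 35 to 39 nt held 19 and 21 pairs, and those from 40 to 44 and 45 to 49 nt held 13 and 11. The bins from 50 to 64 nt held 3 or 4 each.

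Other genes of the pathway were read from a list of 34. At least 1 site was found in 28 of them, 82.4%, against 38.0% of protein-coding genes. At least 5 sites were found in 21 of the 34, against 23.1% of protein-coding genes. Here too expression was not measured, the background was not matched for length, and the difference from it was not tested. By role, sites were present in 6 of 7 other U2 protein genes (0 to 18 sites), 5 of 7 genes of the Sm ring that encircles the snRNA (0 to 15), 3 of 4 RNA helicase genes (0 to 46), 2 of 3 genes of U2AF relatives (0 to 101) and 12 of 13 genes of associated factors (0 to 112). The 3 highest were U2SURP, a U2-associated SURP protein, with 112 sites at 1.89 per kb, RBM39, a U2AF2-like factor, with 101 at 2.47 per kb, and RBM5, a regulator of alternative splicing, with 51 at 1.69 per kb. U2SURP and RBM39 thus had more sites than any of the 10 genes, while none of the 34 reached the density of SF1. Genes with 0 sites were SF3B5, SNRPD2, SNRPD3, DDX39B, CHERP and U2AF1L4. SF3B5 has the shortest span of the list, 0.690 kb, and is known as a gene without introns.

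**Figure D4:**
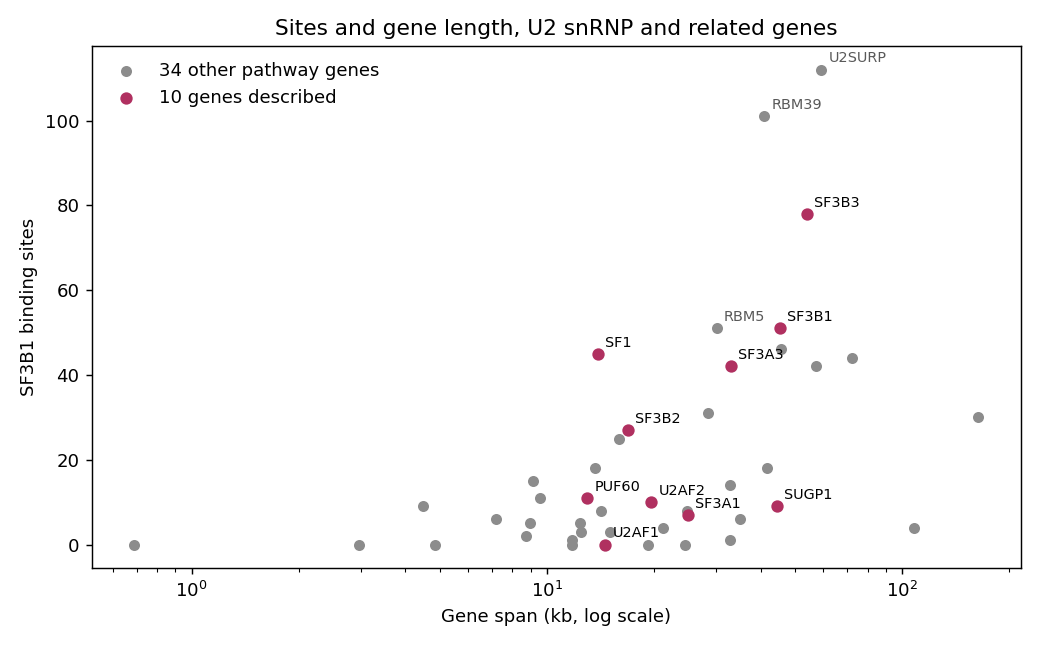
Number of SF3B1 binding sites against gene span (kb, log scale) for the 10 genes (red) and 34 other genes of the pathway (grey, the 3 highest named). SF1, with 45 sites in 13.9 kb, stands above genes of like length, and U2SURP (112) and RBM39 (101) above all 10 genes.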

How the data were processed

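The deposited file lists the positions of merged SF3B1 sites, reproduced by all replicates of either condition per the file headers. Its score column, as deposited, was 0 in every row. A running number of the site or region, called the region number below, accompanies each row. The 280 sites carried 260 such numbers, so some sites shared a number, and 5 numbers were skipped between them. The submitters' processing notes name STAR 2.7.3a and 2.6.1b, UMI-tools 1.0.0, bedtools 2.27.1, FastQC 0.11.8 and the builds GRCh38.p10 and GRCh38.p12, without their roles. The site caller is not given in the sources used here.

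Positions were converted to 1-based coordinates and set against RefSeq gene spans of GRCh38.p14. Strands came from the RefSeq promoter table, and for SF3B3 and PUF60, which it does not hold, from the strand that carried all their sites. Exons, introns and site sequences were not used here, so the planned shares by splice site were not computed. With no values per sample, no test between groups was made. Shares have 95% Wilson intervals and clusters exact Poisson intervals. Counting, pairing and position were tested on simulated data of 200 genes, and all 200 were recovered.

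The genes and lists were chosen with earlier results of these data known. All 10 genes are named, and of the other pathway genes the 3 highest and those with 0 sites. For each gene the cluster with the most sites and the outer sites could be located; clusters tied for the most sites are given together. The 2 kb stretches, the listed examples of paired footprints, the snoRNA genes and the pseudogenes were chosen after their values were seen. Software was SciPy 1.17.1 and pandas 2.3.3 under Python 3.11.15, with NumPy 2.4.6.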

Additional observations from a re-analysis of the deposited data

How the results depend on the processing

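Of 91 recalculations of 16 results, 89 stayed within 1.5 times the count or within the counting interval of the share. The other 2 concern the share of sites in the last 10% of the span, 2.14%. It was 8.93% for the last 20%, by the construction of a wider stretch. When each gene ran from its first to its last site, it was 10.0%, or 28 sites in place of 6. That measure leaves out the empty ends of the annotated spans and places the last site of every gene in the stretch. The low share of 2.14% therefore depends on where the annotated spans end. The same measure over all genes is not given here. The 16 results include the separate counts of the 10 genes, and some of the 89 recalculations could not move. No site lay on the opposite strand or in another protein-coding gene, so those settings repeated the main count. The count of U2AF1 was 0 in all of its recalculations. Merging sites at most 12 nt apart lowered the total from 280 to 238, and leaving out SF3B3 lowered it to 202. The ratio of near to far pairs lay between 2.59 (without SF3B3 or without SF3B1) and 3.33 (1 site per region number), with 2.83 without the dense 2 kb of SF3B1. Counting the copy of U2AF1 raised the genes with a site to 10. The recalculations that leave out a gene or the dense stretch, or add the copy, were chosen after seeing the data.

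No paired analysis was possible because all replicates are merged into one list, and for the same reason none was left out singly. Alternatives that need exons were not run. Read depth is unknown, so a count of 0 sites sets no limit on binding in rare RNA.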
